A study of Mus musculus with 4 samples.

Results

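The transcripts of 7 genes that supply serine and glycine to folate one-carbon metabolism were followed in T cells labelled as lacking Mthfd2 and in T cells labelled wild type. The 7 were Phgdh, Psat1 and Psph (serine synthesis), Shmt1 and Shmt2 (the serine hydroxymethyltransferases) and Sfxn1 and Sfxn3 (sideroflexins). They were chosen by gene symbol for their place in the pathway, and all 7 were found among the 31748 gene symbols of the count tables and passed the filter on low counts. The KO group was 2 libraries of genotype TEaMthfd2 KO and the WT group 2 libraries of genotype TEaWT. Both groups carried the TEa receptor transgene, came from spleens of mice aged 8 weeks, and spent 3 days in culture beside spleen antigen-presenting cells of F1 (BALB/c x C57BL/6) mice that had been given mitomycin. The sources used here do not say which part of Mthfd2 was deleted, in which cells, or whether replicates are separate animals. P-values therefore cover only the spread between these 4 libraries, and that spread may be technical.

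Cells make serine from 3-phosphoglycerate, an intermediate of glycolysis. PHGDH oxidises it, PSAT1 transfers an amino group from glutamate, and PSPH removes the phosphate. SHMT1 in the cytosol and nucleus and SHMT2 in mitochondria then split serine into glycine and a carbon unit carried by tetrahydrofolate. In mitochondria MTHFD2 acts directly after SHMT2 on that carbon unit. SFXN1 carries serine into mitochondria, and work in human cell lines gave SFXN3 an overlapping role. Activated T cells are known to raise serine use and mitochondrial folate enzymes, and the transcription factors ATF4 and MYC are known to drive several of these genes.

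The libraries held between 14191401 and 15955863 counts. Their label is CD4+ T cells, but Cd8a per kilobase of exon exceeded Cd4 by between 3.43 and 4.43 times. Trbv19, from which the TEa receptor beta chain is built, made up no more than 8.39% of Trbv counts. Given these Cd8a, Cd4 and Trbv19 values, whether the values below come from CD4+ or TEa cells is not known. H2-Ea, the gene of the chain that TEa cells recognise, reached no more than 2 counts. That chain belongs to the antigen-presenting cells, so its count does not bear on what the T cells are. The first principal component split the groups, with scores of 43.8 and 40.9 in KO libraries and -65.1 and -19.6 in WT libraries. Levels are given as CPM, counts relative to library totals after TMM scaling. Mthfd2 was present in all libraries, with 222 and 252 CPM in KO libraries and 280 and 280 CPM in WT libraries. Its log2 fold change was -0.24 ± 0.14 (SE, n = 2 per group), which did not pass (edgeR quasi-likelihood, adjusted p = 0.324). Gene-level counts do not show whether single exons are missing, so every direction here rests on the labels.

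None of the 7 genes passed the test of KO against WT. The threshold was an adjusted p of 0.05 (Benjamini-Hochberg over 12752 genes), which 3.95% of all tested genes passed, 2.39% higher and 1.56% lower in KO. At an unadjusted p under 0.05, 2 of the 7 were lower (Shmt1 and Shmt2) and 1 was higher (Sfxn3), where 25.5% of all tested genes passed, 12.7% lower and 12.8% higher. With DESeq2, 1 of the 7 was called, Shmt1, which was lower, where 6.11% of all tested genes were lower and 6.7% higher. With no filter on low counts Shmt1 was again the 1 gene called, where 3.72% of genes were lower and 4.02% higher. In limma-voom 0 of the 7 were called, where 1.7% were lower and 2.95% higher. The median log2 fold change of the 7 was -0.06, against -0.0026 for all tested genes. Both KO libraries lay below both WT libraries for 2 genes and above them for 2, where 30.1% and 29.8% of all tested genes did so.

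**Figure D1:**
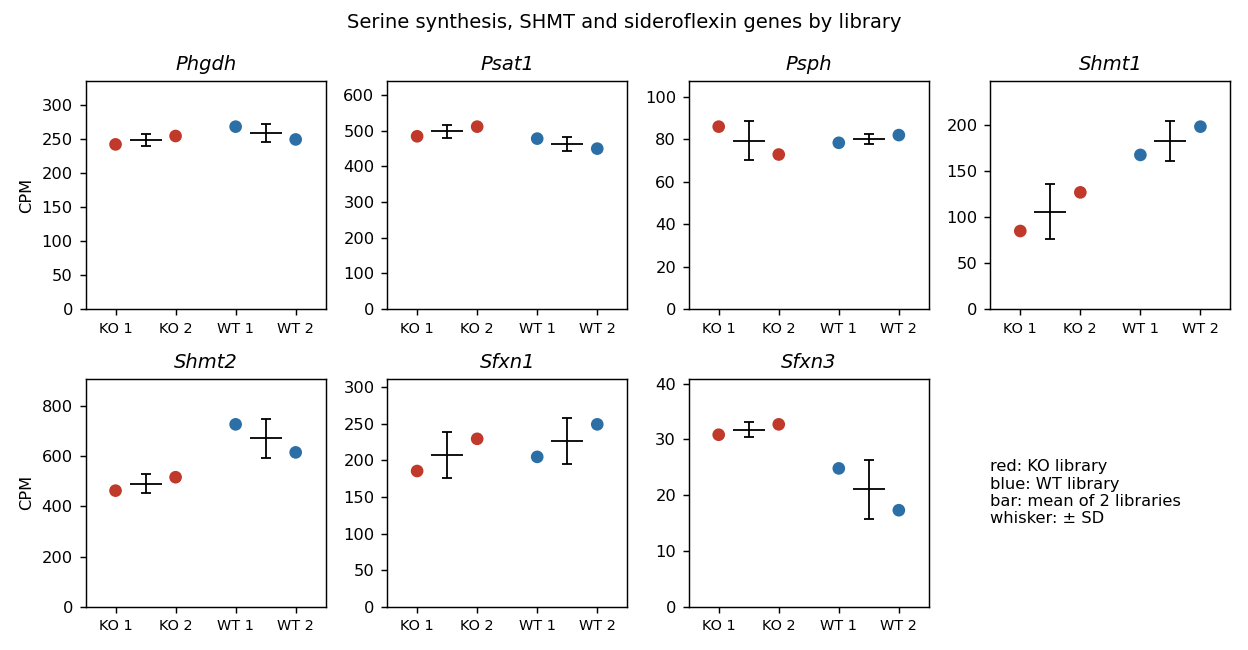
Each panel plots 1 gene in CPM (vertical axis, from 0) by library, KO libraries in red on the left and WT libraries in blue on the right, with the mean of the 2 libraries as a bar and the SD as a whisker. The Shmt1 and Shmt2 panels show both KO libraries below both WT libraries, and the Psat1 and Sfxn3 panels show them above.

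Phgdh, the dehydrogenase that opens serine synthesis, stood at nearly the same level in both groups. It had 242 and 254 CPM in KO libraries, against 268 and 249 CPM in WT libraries, and the groups overlapped. The log2 fold change was -0.06 ± 0.14 (SE, n = 2 per group; edgeR adjusted p = 0.821), with a 95% interval from -0.39 to 0.27, a fold between 0.765 and 1.20. Its locus is on chromosome 3 (GRCm38, 98313170 to 98339990, minus strand, ENSMUSG00000053398.11), with 12 exons in the transcript used here.

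Most of the counts that could belong to Phgdh were not on its row. The tables held 14 processed pseudogenes of Phgdh, copies of its spliced transcript that aligned to it over at least 100 bases at 90% identity or more. Gm7901 on chromosome 8 (75711600 to 75713196, minus strand) matched Phgdh at 98.7% of 1597 aligned bases, and it held 4983 and 5528 counts in KO libraries and 6524 and 5351 in WT libraries. The Phgdh row itself held 3423 and 3548 counts in KO libraries and 4389 and 3688 in WT libraries. In each library Gm7901 therefore had more counts than Phgdh, at between 1.45 and 1.56 times its count. Gm9347 on chromosome 7 (136810909 to 136812515, plus strand) held between 348 and 514 counts, and the other 12 copies held at most 13 counts in any library. The stretch of the Phgdh coding sequence from base 1301 to base 1400 is shown with both copies to make the likeness visible. Pieces of 100 bases were laid end to end from the start codon, and only those aligned without a missing base in either copy were compared. Of these, the stretch shown is the first with the most differences between Phgdh and Gm7901. Bases are the 5′ to 3′ transcript sense of GENCODE M21, and capitals mark a base that differs from Phgdh:
Phgdh: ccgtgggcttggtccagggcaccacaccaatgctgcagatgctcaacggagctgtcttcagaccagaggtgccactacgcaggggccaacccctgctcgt
Gm7901: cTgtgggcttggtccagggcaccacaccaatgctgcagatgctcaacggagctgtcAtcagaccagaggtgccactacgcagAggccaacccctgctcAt
Gm9347: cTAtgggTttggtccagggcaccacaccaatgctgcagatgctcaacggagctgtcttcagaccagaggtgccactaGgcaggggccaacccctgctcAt

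Even here Gm7901 differed from Phgdh at 4 of 100 bases and Gm9347 at 5. Over all 100-base windows of the coding sequence that could be aligned, 65.2% differed from Gm7901 at 1 base or none. Of these 1496 windows, 698 were identical to Gm7901, and the longest identical run was 312 bases. How the authors treated reads that map to several places is not given in the sources used here. How far these counts separate reads of Phgdh from reads of Gm7901 is therefore not known.

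The sum of Phgdh and its 14 copies was also level between the groups. It stood at 623 and 677 CPM in KO libraries, against 700 and 638 CPM in WT libraries, and the groups overlapped. The log2 fold change of the sum was -0.04 ± 0.14 (SE, n = 2 per group; edgeR adjusted p = 0.884), and its 95% interval ran from -0.38 to 0.30. The Phgdh row held between 37.6% and 39.1% of the sum in every library, so the split between gene and copies was alike in all 4. The level of Phgdh against other genes is uncertain for this reason.

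**Figure D2:**
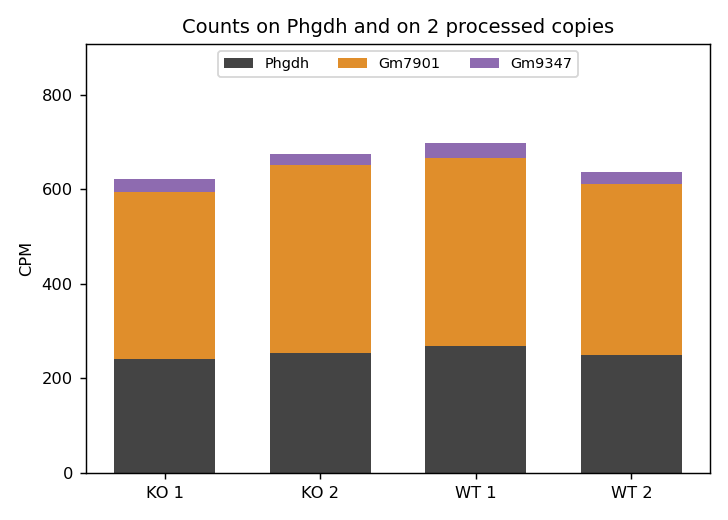
The bars stack the CPM of Phgdh, Gm7901 and Gm9347 (vertical axis, from 0) in each library, with the KO libraries left of the WT libraries. Gm7901 takes the largest share of the 3 rows in each library, from 352 CPM in KO replicate 1 to 399 CPM in WT replicate 1.

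Psat1, the aminotransferase of the second step, was slightly higher in KO libraries without passing the test. It had 484 and 511 CPM in KO libraries, against 478 and 450 CPM in WT libraries, so the groups did not overlap but lay close. Its log2 fold change was 0.10 ± 0.14 (SE, n = 2 per group; edgeR adjusted p = 0.679), and the 95% interval ran from -0.22 to 0.43. A pseudogene, Gm3329, lies in an intron on the other strand and shares no exon base with it. Psat1 lies on the minus strand of chromosome 19 (15904678 to 15947337, ENSMUSG00000024640.9), with 9 exons.

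Psph, the phosphatase that releases free serine, had the smallest difference of the 7. It had 86.0 and 72.9 CPM in KO libraries, which lay on either side of the 78.4 and 82.1 CPM in WT libraries. The log2 fold change was -0.01 ± 0.16 (SE, n = 2 per group; edgeR adjusted p = 0.970; 95% interval -0.40 to 0.37). Without WT replicate 2 it was 0.024, and without KO replicate 2 it was 0.10, so its sign turned with single libraries. Psph (chromosome 5, 129765558 to 129787449, minus strand, ENSMUSG00000029446.14, 8 exons) shares 452 exon bases, 10.4% of its exon length, with the start of Cct6a on the other strand. Cct6a, a subunit of the chaperonin that folds actin and tubulin, had 530 and 648 CPM in KO libraries and 875 and 844 CPM in WT libraries (adjusted p = 0.0963). The use of strand in counting is not given in the sources used here, so reads in the shared stretch could belong to either gene.

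The ratio of Psat1 to Phgdh, each per kilobase of exon, was the most even of 6 ratios within groups. It was 1.17 and 1.17 in KO libraries, against 1.04 and 1.05 in WT libraries, and the groups did not overlap. With 2 libraries against 2 an exact two-sided permutation test cannot go below 0.333, the value this ratio gave (0.667 adjusted over the 6 ratios). With the copies of Phgdh added, the ratio in CPM was 0.778 and 0.755 in KO libraries and 0.683 and 0.705 in WT libraries.

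Shmt1, the cytosolic hydroxymethyltransferase, showed the largest difference of the 7 and was lower in both KO libraries. It had 84.8 and 127 CPM in KO libraries, from 1200 and 1769 counts, against 167 and 198 CPM in WT libraries, from 2742 and 2932 counts. The groups did not overlap, and KO replicate 1 lay well below KO replicate 2. The log2 fold change was -0.79 ± 0.22 (SE, n = 2 per group), a fold of 0.579 with a 95% interval from 0.401 to 0.835, and it did not pass over all genes (edgeR adjusted p = 0.0901). It passed in 3 of the 11 other settings, among them DESeq2 (adjusted p = 0.0179) and no filter on low counts (adjusted p = 0.0310). The adjusted p ranged from 0.0179 to 0.417 over these settings, and the fold was lower in KO in all 11. Without KO replicate 1 the log2 fold change was -0.53, and without KO replicate 2 it was -1.11. Shmt1 lies on the minus strand of chromosome 11 (60788104 to 60811718, ENSMUSG00000020534.14), with 12 exons. Smcr8, on the other strand, shares 184 exon bases at its 3′ end, 4.74% of the exon length, and had 93.2 and 86.7 CPM in KO libraries and 101 and 80.9 CPM in WT libraries.

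Shmt2, the mitochondrial hydroxymethyltransferase that hands its product to MTHFD2, was lower in both KO libraries as well. It had 462 and 516 CPM in KO libraries, from 6541 and 7197 counts, against 726 and 615 CPM in WT libraries, from 11892 and 9095 counts. The groups did not overlap, and WT replicate 1 was the highest. Shmt2 had a log2 fold change of -0.46 ± 0.16 (SE, n = 2 per group), a fold of 0.729 with a 95% interval from 0.564 to 0.943, and it did not pass over all genes (edgeR adjusted p = 0.136; DESeq2 adjusted p = 0.0776). Without WT replicate 1 the log2 fold change was -0.32. Shmt2 lies on the minus strand of chromosome 10 (127517123 to 127522444, ENSMUSG00000025403.5), with 12 exons. Its last 32 bases are shared with Ndufa4l2 on the other strand, which had at most 4 counts in a library.

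The balance of the 2 hydroxymethyltransferases lay toward the mitochondrial enzyme in every library. Per kilobase of exon, Shmt2 stood at 6.81 and 5.08 times Shmt1 in KO libraries, against 5.42 and 3.87 times in WT libraries. The groups overlapped, and an exact two-sided permutation test of the log2 ratio gave p = 0.667 (0.800 adjusted over the 6 ratios). Against Mthfd2, the next enzyme, Shmt2 stood at 2.33 and 2.30 times in KO libraries and 2.91 and 2.46 times in WT libraries.

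The promoters of Shmt1 and Shmt2 are shown because both transcripts were lower in both KO libraries, as were 30.1% of all tested genes. Each is 300 bases from RefSeq (GRCm38.p6, minus strand, 5′ to 3′), 250 before and 50 after the annotated start. Capitals mark matches on either strand to the GC box GGGCGG or to CCAAT. Shmt1 is at chr11:60811216-60811515 and Shmt2 at chr10:127522395-127522694:
Shmt1: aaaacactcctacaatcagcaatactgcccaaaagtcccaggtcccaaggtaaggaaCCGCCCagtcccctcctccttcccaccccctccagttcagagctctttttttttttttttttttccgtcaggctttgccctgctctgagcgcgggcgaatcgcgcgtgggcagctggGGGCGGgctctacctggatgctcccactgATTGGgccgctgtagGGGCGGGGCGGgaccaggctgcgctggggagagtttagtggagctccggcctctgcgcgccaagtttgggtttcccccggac
Shmt2: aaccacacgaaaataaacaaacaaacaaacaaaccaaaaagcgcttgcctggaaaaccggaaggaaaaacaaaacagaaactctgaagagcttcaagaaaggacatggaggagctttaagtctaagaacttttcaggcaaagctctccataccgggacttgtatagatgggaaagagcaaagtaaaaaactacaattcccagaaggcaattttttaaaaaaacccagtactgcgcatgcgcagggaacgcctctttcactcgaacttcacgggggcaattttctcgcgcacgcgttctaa

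The Shmt1 window held 4 GC boxes, a pair of which overlap each other, and 1 CCAAT, while the Shmt2 window held neither. RefSeq windows were found for all 7 genes, 8 windows in all since Psat1 has more than 1 start. A GC box was in 5 of the 8 windows and CCAAT in 4, against 35.7% and 37.4% of all 32851 windows of this length. The amino acid response motif bound by ATF4 with C/EBP factors, TGATGNAAN, and the E-box bound by MYC, CACGTG, were in 0 of the 8 windows, searched on both strands. They are in 3.95% and 7.15% of all windows. These letters not being in these windows says nothing about binding elsewhere.

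Sfxn1, the mitochondrial serine carrier, overlapped between the groups. It had 185 and 229 CPM in KO libraries, against 205 and 249 CPM in WT libraries. Its log2 fold change was -0.13 ± 0.18 (SE, n = 2 per group; edgeR adjusted p = 0.683; 95% interval -0.55 to 0.29). It was 0.023 without WT replicate 2 and 0.015 without KO replicate 1, so its sign rests on single libraries. Sfxn1 lies on the plus strand of chromosome 13 (54071869 to 54108342, ENSMUSG00000021474.9).

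Sfxn3, the related carrier, had the highest fold of the 7 at a low level. It had 30.8 and 32.7 CPM in KO libraries, from 436 and 456 counts, against 24.8 and 17.3 CPM in WT libraries, from 406 and 256 counts. The groups did not overlap, and the WT libraries were more spread than the KO libraries. Sfxn3 had a log2 fold change of 0.59 ± 0.23 (SE, n = 2 per group), a fold of 1.51 with a 95% interval from 1.04 to 2.19, and it did not pass (edgeR adjusted p = 0.168; DESeq2 adjusted p = 0.167). Without WT replicate 1 the log2 fold change was 0.88, and without WT replicate 2 it was 0.36. Sfxn3 lies on the plus strand of chromosome 19 (45047503 to 45056383, ENSMUSG00000025212.17). Per kilobase of exon, Sfxn1 stood at 1.90 and 2.22 times Sfxn3 in KO libraries, against 2.61 and 4.55 times in WT libraries.

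**Figure D3:**
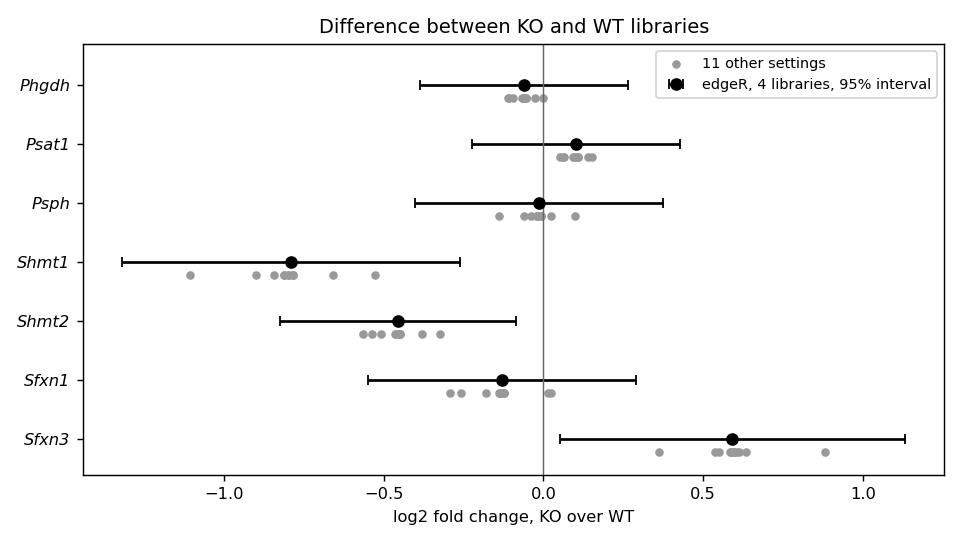
Black points show the log2 fold change of KO over WT (horizontal axis) for each gene with its 95% interval from the edgeR fit of 4 libraries, and grey points show the 11 other settings. The intervals of Shmt1, Shmt2 and Sfxn3 do not reach 0, and the grey points of Psph and Sfxn1 fall on both sides of 0.

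For 5 of the 7 genes the 95% interval of the fold lay between 0.5 and 2. The intervals of the other two, Shmt1 and Sfxn3, reach past those limits. These intervals are of single genes and are not adjusted. Without WT replicate 1, the log2 fold change was -0.90 for Shmt1, -0.26 for Sfxn1, 0.15 for Psat1, -0.040 for Psph and -0.00055 for Phgdh. In counts simulated from these libraries, with 12514 genes tested, the test found 37 of the 100 genes given a 2-fold change. It found 90 of the 100 given a 4-fold change. The changed genes were drawn at random over a wide range of levels, and both groups were given the same spread. These shares are therefore not those for the 7 genes.

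Per kilobase of exon, and with Phgdh taken from its own row alone, the order of levels was Shmt2, then Psat1 and Phgdh, Shmt1, Sfxn1, Psph and Sfxn3. The exon length counts each base that is exonic in any annotated transcript, 9841 bases for Sfxn1 and 3883 for Shmt1. The order depends on that choice. In CPM, without division by length, Sfxn1 lay above Shmt1 in each library. Shmt2 had 149 and 166 CPM per kilobase in KO libraries and 234 and 198 in WT libraries, above the other 6 rows in each library. If the counts of the copies are added to Phgdh and divided by its exon length, Phgdh comes to 250.4 and 272 CPM per kilobase in KO libraries and 281 and 257 in WT libraries, above Shmt2 in each library, so the place of Phgdh in this order is not settled. Psat1 (between 106 and 120 over the 4 libraries) and Phgdh (between 97.4 and 108) overlapped on this basis. Shmt1 had 21.9 and 32.7 in KO libraries and 43.1 and 51.0 in WT libraries. Its KO libraries overlapped the levels of Sfxn1 (between 18.8 and 25.3), which overlapped those of Psph (between 16.8 and 19.9). Sfxn3 was lowest in each library, with 9.91 and 10.5 in KO libraries and 7.97 and 5.56 in WT libraries. The level of Shmt2 was above that of 98.5% of tested genes, and that of Sfxn3 above 53.9%.

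**Figure D4:**
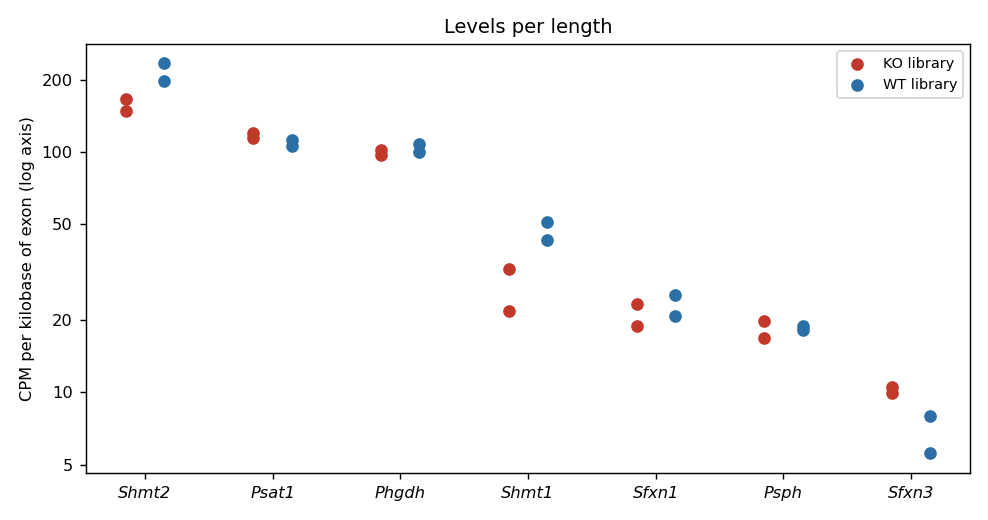
Points show CPM per kilobase of exon on a log axis (vertical) for each gene, ordered by mean level, with KO libraries in red left of WT libraries in blue. Shmt2 lies between 149 and 234 and Sfxn3 between 5.56 and 10.5.

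Other genes that use or move serine and glycine gave 0 calls with edgeR, where 3.95% of all tested genes were called. Of 17 enzymes of glycine cleavage and of other serine and glycine steps, 12 were tested (median log2 fold change -0.06). At an unadjusted p under 0.05, 1 was lower and 0 higher, where 12.7% of all tested genes were lower and 12.8% higher. Gcsh, the carrier protein of the glycine cleavage system, had 31.3 and 43.6 CPM in KO libraries and 67.7 and 70.2 CPM in WT libraries (-0.88 ± 0.20, adjusted p = 0.0568). Gldc, the decarboxylase of the same system, was near silent, with 3.75 and 1.15 CPM in KO libraries and 0 and 0.811 CPM in WT libraries (adjusted p = 0.235). Of 10 carriers of serine and glycine, 8 were tested and 3 were lower at an unadjusted p under 0.05 (median -0.31). Over all tested genes 12.7% were lower at that threshold. Slc25a38, a mitochondrial glycine carrier, had 21.8 and 23.3 CPM in KO libraries and 41.0 and 31.5 CPM in WT libraries (-0.68 ± 0.20, adjusted p = 0.0996). Slc1a5, a carrier of glutamine and other neutral amino acids, had 399 and 435 CPM in KO libraries and 557 and 525 CPM in WT libraries (-0.37 ± 0.14, adjusted p = 0.158). Of the other 3 sideroflexins none was called. Sfxn2 had 10.7 and 13.8 CPM in KO libraries and 19.1 and 19.1 CPM in WT libraries (adjusted p = 0.156), and Sfxn5 had 1.77 and 4.16 CPM in KO libraries and 2.99 and 4.66 CPM in WT libraries (adjusted p = 0.708).

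Genes of the neighbouring glycolytic and folate steps were called, where 2.39% of all tested genes were called higher and 1.56% lower in KO. Of 5 genes of glycolysis around 3-phosphoglycerate, 3 rose and 0 fell (median 0.96). Pgk1, which makes 3-phosphoglycerate, had 337 and 267 CPM in KO libraries and 92.4 and 112 CPM in WT libraries (1.56 ± 0.18, adjusted p = 0.0241). Pgam1, which draws the same intermediate on down glycolysis, had 222 and 227 CPM in KO libraries and 96.6 and 135 CPM in WT libraries (0.96 ± 0.19, adjusted p = 0.0480). Eno1, enolase, rose by 1.37 ± 0.27 (adjusted p = 0.0477). No call was made for Gapdh (0.68, adjusted p = 0.0949) or Bpgm (-0.02, adjusted p = 0.960). Reads of some glycolysis genes may be shared with their processed pseudogenes. The edgeR calls given for these and the other lists were lost when a KO library was left out. With KO replicate 1 left out, edgeR called 0 of all tested genes, and 1566 had an unadjusted p under 0.05. With KO replicate 2 left out it also called 0, and 2097 had such a p. Of 10 tested folate genes next to SHMT, 2 fell and 0 rose (median -0.32): Slc25a32, the mitochondrial folate carrier (36.2 and 47.1 CPM in KO libraries, 84.8 and 75.2 CPM in WT libraries, adjusted p = 0.0480), and Fpgs, which adds glutamates to folate (38.5 and 43.7 CPM in KO libraries, 77.7 and 79.3 CPM in WT libraries, adjusted p = 0.0400).

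Of 8 genes of glutamate supply and aminotransferases (median -0.04), 0 were called with edgeR, where 3.95% of all tested genes were called. At an unadjusted p under 0.05, 2 were lower, where 12.7% of all tested genes were lower. The 2 were Got1, the cytosolic aspartate aminotransferase, and Bcat1, the cytosolic branched-chain aminotransferase. Got1 had 103 and 116 CPM in KO libraries and 180 and 164 CPM in WT libraries (edgeR adjusted p = 0.0610). Bcat1 had 90.6 and 114 CPM in KO libraries and 189 and 144 CPM in WT libraries (edgeR adjusted p = 0.0914). Of 10 regulators and amino acid response genes, 1 fell and 0 rose (median -0.73), where 1.56% of all tested genes fell and 2.39% rose. The 1 that fell was Myc, with 164 and 215 CPM in KO libraries and 635 and 427 CPM in WT libraries (-1.49 ± 0.24, edgeR adjusted p = 0.0397). At an unadjusted p under 0.05, 3 of the 10 were lower and 0 higher, where 12.7% and 12.8% of all tested genes were. Atf4 had 331 and 305 CPM in KO libraries and 538 and 350 CPM in WT libraries (edgeR adjusted p = 0.221). Asns was the 1 gene of the list with a positive log2 fold change (0.61 ± 0.26, edgeR adjusted p = 0.207). These lists were chosen with earlier results of these data known, and nothing particular to a list is read from its median.

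**Figure D5:**
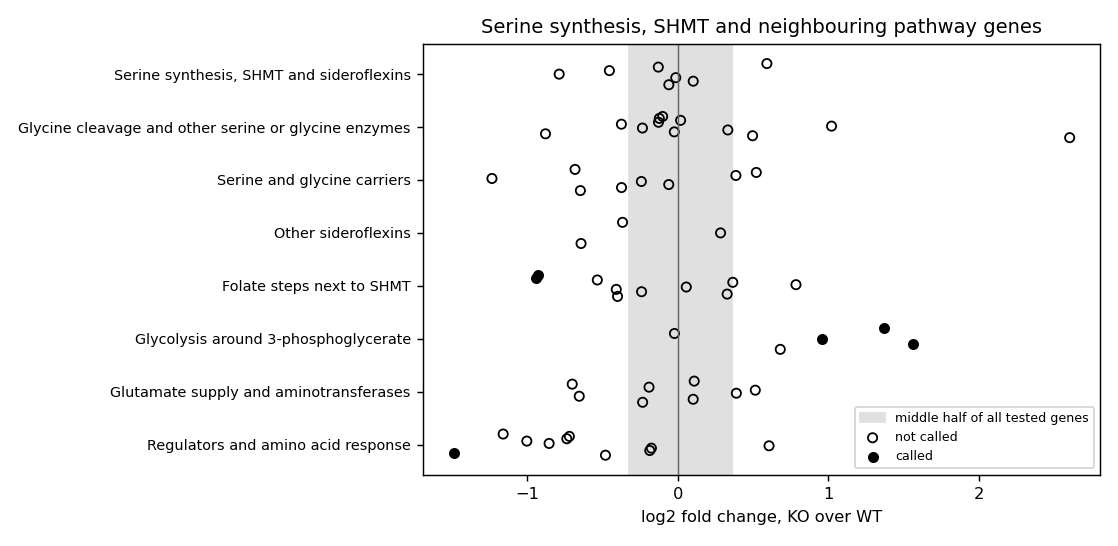
Each point is the log2 fold change of KO over WT (horizontal axis) of 1 tested gene, by list, filled where it was called, and the grey band spans the lower to the upper quartile of all tested genes, from -0.33 to 0.36. Called genes appear in the folate, glycolysis and regulator rows. Shmt1, Shmt2 and Sfxn3 lie outside the band, where 20.4%, 39.6% and 29.8% of all tested genes had a difference at least as large.

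Markers of other cell types moved with the comparison, where 2.39% of all tested genes were called higher and 1.56% lower in KO. Of 6 B cell genes 4 fell and 0 rose, with a summed level of 394 and 346 CPM in KO libraries and 1136 and 699 CPM in WT libraries. All 5 genes of MHC class II presentation fell, and their sum was 1176 and 1007 CPM in KO libraries and 3780 and 2241 CPM in WT libraries. Of 4 tested T cell genes 3 rose. Of 3 tested red cell genes 1 fell, Hba-a2, which encodes alpha globin (edgeR adjusted p = 0.0410). The closely similar Hba-a1, which also encodes alpha globin, was not called (edgeR adjusted p = 0.0533). The median log2 fold change of the 3 genes was -4.10. Their sum was 6.22 and 2.44 CPM in KO libraries and 118 and 28.9 CPM in WT libraries, and Hbb-bt was at 0 counts in KO replicate 2. Of 5 tested myeloid genes 1 fell, Spi1. The list sum was 12.4 and 9.82 CPM in KO libraries and 45.2 and 29.4 CPM in WT libraries, with Csf1r and Itgam at 0 counts in at least 1 library. Spi1 was the largest part of the sum in both WT libraries, at 27.4 and 19.3 CPM, against 4.95 and 3.15 CPM in KO libraries. Cd68 differed little, with 4.60 and 4.59 CPM in KO libraries and 5.50 and 5.34 CPM in WT libraries. A difference in myeloid cells is therefore not read from this sum. The sum of the NK cell genes was at most 3.67 CPM in any library. The 8 genes of dividing cells gave 0 calls with edgeR. At an unadjusted p under 0.05 they also gave 0, where 25.5% of all tested genes passed. The sum of the 8 was 4922 and 5542 CPM in KO libraries and 1997 and 4179 CPM in WT libraries. Shmt2 was highest in WT replicate 1, as were the B cell, MHC class II and red cell sums, Myc and Atf4. Shmt1 was highest in WT replicate 2. With 4 libraries, a shared highest library does not point to a source. The part of these cell types in the values of Shmt1, Shmt2 and Sfxn3 was not tested. In bulk RNA, fewer cells of a type and less RNA per cell cannot be told apart.

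The tested genes most like each of the 7 across the libraries were taken by the Pearson correlation of log2 CPM over 4 libraries, a measure that few points make easy to reach. Likeness to Shmt1 was highest for Rapgef5 and Tbc1d5, and 151 tested genes reached a correlation of 0.99 with it. Shmt2 was most like Il5ra and Pla2g7, and 291 genes reached that level with it. Il5ra and Pla2g7 had at most 5.62 and 3.05 CPM in any library, and log2 values at such levels rest on few counts. Phgdh was nearest to Gtf2h2 and Smu1, Psat1 to Cd8a and Cyp2d22, Psph to Nim1k and Ntng2, Sfxn1 to Jpt2 and Rcc1, and Sfxn3 to Jak1 and Gm5113. Between 23 and 72 genes reached the level with these 5. Cyp2d22 and Nim1k were likewise low, with at most 1.58 and 1.13 CPM in any library. Among the 7 themselves, KO replicate 1 was the lowest library for 4 genes (Phgdh, Shmt1, Shmt2 and Sfxn1) and the highest for Psph, and WT replicate 2 was the lowest for Psat1 and Sfxn3.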

How the data were processed

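RNA was measured in 4 libraries. The authors deposited 1 table per library with raw counts of reads per gene symbol, not normalized. Per the submitters' processing notes, featureCounts of Subread 2.0.1 was used with mm10, beside DESeq2 1.30.1 in R 4.0.4. Which aligner and annotation release were used, and whether strand or multi-mapping reads counted, is not given in the sources used here. Total RNA was depleted of ribosomal RNA, per the labels' protocols.

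Here edgeR 4.0.16 (R 4.3.3) was run on the counts. The filter was filterByExpr with a minimum count of 10 and a minimum total of 15, which 12752 genes passed, and TMM factors were applied. KO was compared with WT by the quasi-likelihood test with all 4 libraries and no covariate, adjusted by Benjamini-Hochberg over all tested genes. Fold changes are KO over WT. SE is the log2 fold change divided by the root of F, and intervals use its t distribution. The fit was tested on simulated data. DESeq2 1.42.0, limma-voom (limma 3.58.1), other scalings, no filter, a replicate block and leaving out each library were tried. Exon lengths, positions and copies come from GENCODE M21 (GRCm38, 1-based) and promoters from RefSeq. An exon length counts each base that is exonic in any transcript of the gene.

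All 7 genes were named whatever their values, with called genes of each list, or up to 2 with the smallest p where none was called. Some genes that were not called are named beside these to show how others of their list went. Genes and lists were chosen with earlier results of these data known. The sum of Phgdh and its copies was added after seeing the data.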

Additional observations from a re-analysis of the deposited data

How the results depend on the processing

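The number of the 7 genes called lower was 0 with all 4 libraries and edgeR, and 1 (Shmt1) with DESeq2, with no filter on low counts and with the replicate block (adjusted p = 0.0348 there). None was called higher under any of the 11 alternatives. Over all genes, 305 were called higher and 199 lower. Upper quartile factors called 122 lower, no filter 737 higher and 682 lower, DESeq2 854 higher and 779 lower, and the replicate block 488 higher and 401 lower. Leaving out 1 library gave between 0 and 1423 higher and between 0 and 1101 lower. Both counts of 0 came from edgeR fits with KO replicate 1 left out (1566 genes had an unadjusted p under 0.05) or KO replicate 2 left out (2097 genes), and the highest came without WT replicate 2. Each group left with 1 library is assumed to vary like the other. The cause of these moves was not tested. Same-numbered libraries share only a number (correlation of their deviations 0.0397), so the block is not a pairing by design. The log2 fold changes of Phgdh, Psat1, Shmt1, Shmt2 and Sfxn3 kept their direction under all 11 alternatives. That of Psph ranged from -0.14 to 0.10 and that of Sfxn1 from -0.29 to 0.023 when 1 library was left out. Psph was 0.024 without WT replicate 2 and 0.10 without KO replicate 2, and Sfxn1 was 0.023 without WT replicate 2 and 0.015 without KO replicate 1. Summing Phgdh with its copies, chosen after seeing the data, gave -0.04.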
